A study of Homo sapiens with 10 samples.

Results

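The genes described here build the route by which proteins enter the endoplasmic reticulum (ER) and travel between the ER and the Golgi apparatus. A gene was taken as a member if its symbol on the array began with SEC and a digit, COPA, COPB, COPE, COPG, COPZ, ARCN, KDELR, TMED, SSR and a digit, or SRP and a digit. The rule found 58 members among 18404 measured genes, of which 55 are protein-coding genes and 3 are pseudogenes. Expression had been measured on Affymetrix arrays in HEK-293 cells, an established human embryonic kidney line with neuronal features, 48 hours after transfection of small interfering RNAs (siRNAs) with a lipid reagent. The 10 arrays fell into 5 groups of 2 biological replicates. A control siRNA at 10 nM was the reference for siRNA 1 and siRNA 2, both against the long non-coding RNA LOC440173 (now LINC02893) and both at 10 nM. The same control siRNA at 100 nM was the reference for an siRNA against PAXIP1-AS1 at 100 nM. All groups were transfected, there was a single control siRNA, and PAXIP1-AS1 had 1 siRNA, so an effect of that siRNA and an effect of losing its target cannot be told apart. Both LOC440173 comparisons share their control arrays, and their values are therefore given side by side without an overlap.

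Proteins for secretion carry a signal peptide that the signal recognition particle (SRP) binds on the ribosome. The ribosome docks on the SEC61 translocon, the chain passes into the ER, and signal peptidase removes the signal. Vesicles with a COPII coat carry cargo out of the ER, with p24 proteins of the TMED family as cargo receptors. Vesicles with a COPI coat bring escaped residents back, and KDEL receptors catch ER chaperones by their carboxy-terminal tail. In professional secretory cells these genes are known to rise together in the unfolded protein response, through the transcription factors XBP1 and ATF6.

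Array medians lay between 7.06 and 7.12 on the log2 scale. LINC02893 itself fell by 0.96 on the log2 scale with siRNA 1 and fell by 1.89 with siRNA 2 (standard error, SE, 0.099; limma adjusted p = 0.000305 and 1.38e-05), while the level of PAXIP1-AS1 was not analysed here. The difference of siRNA 2 from siRNA 1 was -0.93 (limma adjusted p = 0.000177). Both LOC440173 siRNAs thus differ in sequence and in depth of silencing. Where their effects differ, these cannot be told apart. Of 9 markers of the HEK-293 line, 6 reached the median of all genes (NEFL, NEFM, INA, VIM, KRT18 and SALL2), and KRT8, PAX2 and LHX1 lay below it. Among 16 measured markers of liver, blood, endothelium, keratinocytes, fibroblasts and professional secretory cells, 1 (COL1A1) reached that median. A gene is named called where the adjusted p of its comparison was under 0.05. Of the members, 48 reached the all-gene median (7.66) and 10 stayed below it.

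KDELR3, an ER retrieval receptor, fell to 26.3% of its control level with LOC440173 siRNA 2, the largest difference of any member from a control. SEC61B, the beta subunit of the translocon, was higher with each of the 3 target siRNAs. The 58 members did not shift in 1 direction: the median log2 fold change was 0.02 with siRNA 1, 0.00 with siRNA 2 and -0.01 with the PAXIP1-AS1 siRNA, against 0.05, 0.01 and -0.01 over all genes. Shares over all genes, here and below, are not matched for expression level. Of the 58 members, 48 reached the all-gene median, and calls among equally bright genes were not counted. With siRNA 1, 22 members were called, 10 higher and 12 lower (37.9%, against 28.8% of all genes, 12.1% higher and 16.7% lower). With siRNA 2, 24 were called, 12 higher and 12 lower (41.4%, against 30%, 12.5% higher and 17.4% lower). The number was 15 without siRNA 2 replicate 2 and 11 in a fit of the compared groups alone. The direct comparison of siRNA 2 with siRNA 1 called 26 members, 14 higher and 12 lower (44.8%, against 37.1%, 18.2% higher and 19% lower). At a change of at least 1.5-fold, 7, 4 and 8 members were called in these comparisons, against 5.67%, 6.63% and 10.6% of all genes.

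With the PAXIP1-AS1 siRNA 7 members were called, 6 higher and 1 lower (12.1%, against 4.62% of all genes, 2.86% higher and 1.76% lower). SEC61B alone was called at 1.5-fold or more (0.609% of all genes). The count of 7 was 4 without either array of siRNA 1, 3 without control 100 nM replicate 2, and 2 without control 100 nM replicate 1, without either PAXIP1-AS1 array or in a fit of the compared groups alone. It was 12 with dim genes left out and 11 with an intensity trend and robust prior. Between the control doses limma called 0 of 58 members and 0 of 18404 genes, with 1 member (SSR4P1, 0.27) and 692 genes at an unadjusted p under 0.05. The next members by p between the doses were SEC22C (-0.11), TMED3 (-0.14) and TMED10P1 (0.15), each with an adjusted p of 1.00. Over all 5 groups, a moderated F test called 32 members (44.5% of all genes were called), led by KDELR3, SEC61A2, COPG1, TMED10 and SEC61B.

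**Figure D1:**
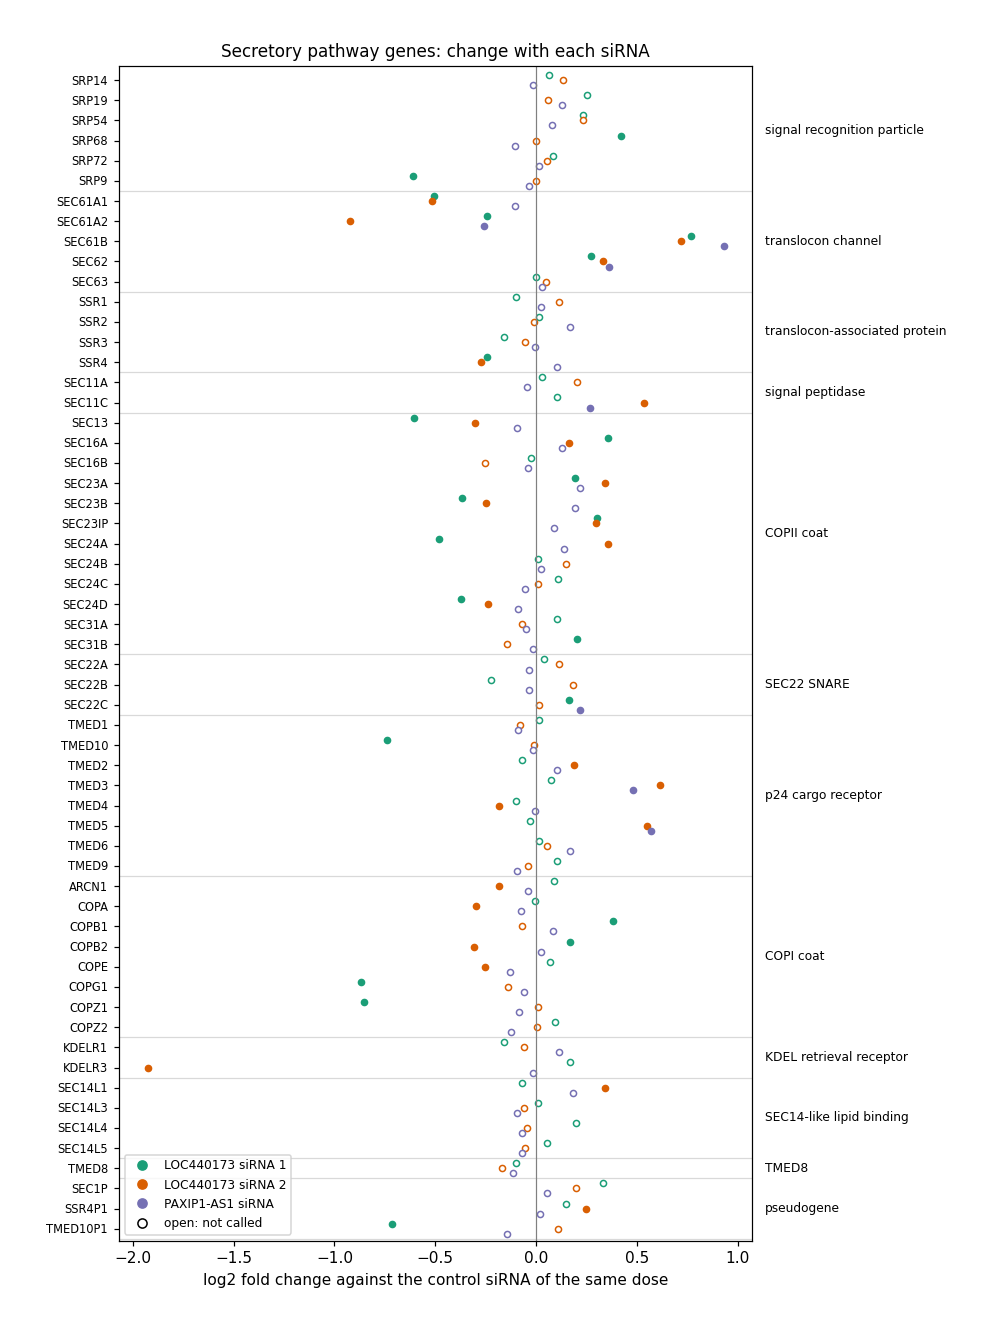
Log2 fold change of all 58 members (rows, grouped by role) against the control siRNA of the same dose, for LOC440173 siRNA 1 (green), siRNA 2 (orange) and the PAXIP1-AS1 siRNA (purple). Filled points passed an adjusted p of 0.05 in limma and open points did not. KDELR3 stands at -1.93 with siRNA 2, and SEC61B lies to the right of zero with each siRNA.

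The KDEL receptors bind ER chaperones in the Golgi and return them in COPI vesicles. KDELR3 measured 9.37 and 9.47 in the 10 nM control, 9.58 and 9.59 with siRNA 1, 7.35 and 7.63 with siRNA 2, 9.40 and 9.46 in the 100 nM control, and 9.41 and 9.42 with the PAXIP1-AS1 siRNA. Both siRNA 2 arrays lay far below the other 8, which stayed within a narrow band. The group mean was 9.42 ± 0.068 (log2, SD, n = 2) in the 10 nM control and 7.49 ± 0.20 with siRNA 2, a log2 fold change of -1.93 (SE 0.088, adjusted p = 8.31e-06). Against siRNA 1, which targets the same RNA and lowered it less, the difference of siRNA 2 was -2.09 (SE 0.088, adjusted p = 3.19e-06). With siRNA 1 the difference from the control was 0.17 (95% interval -0.04 to 0.37, adjusted p = 0.200), and with the PAXIP1-AS1 siRNA -0.01 (-0.22 to 0.19, adjusted p = 0.960). Among all genes, 1.18% were called and at least 2-fold lower with siRNA 2, and KDELR3 was the only member among them.

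KDELR1, the widely expressed receptor of the same family, measured 11.65 and 11.66 in the 10 nM control, 11.45 and 11.54 with siRNA 1, and 11.61 and 11.57 with siRNA 2. It measured 11.59 and 11.66 in the 100 nM control and 11.73 and 11.75 with the PAXIP1-AS1 siRNA. Its arrays were close together in every group. It was called by the moderated F test over the 5 groups (adjusted p = 0.0451), and by none of the pairwise comparisons as fitted. The differences were -0.16 with siRNA 1 (95% interval -0.28 to -0.03, adjusted p = 0.0621), -0.06 with siRNA 2 (-0.18 to 0.06, adjusted p = 0.486) and 0.12 with the PAXIP1-AS1 siRNA (-0.01 to 0.24, adjusted p = 0.308). The siRNA 1 fall was called with the replicate block, with dim genes left out and with a robust prior that follows intensity, and its adjusted p ran from 0.00529 to 0.298 over the alternatives. The interval with siRNA 2 left out a fall of the size seen for KDELR3. KDELR2 was not analysed here.

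Because XBP1 and ATF6 are known to act on genes of this pathway, the 250 bases before the start of transcription were read from RefSeq (GRCh38.p14) for the 52 members with an entry. The letters TGACGTGG, a core of the unfolded protein response element (UPRE), were searched on both strands. They stood in the windows of 7 members (13.5%), against 182 of 27305 windows of all genes with an entry (0.667%). That wider set was not limited to genes measured on the array. It was not matched to the members for gene type, expression level or G and C content. They overlap the TGACG core of the cAMP response element. The longer ER stress element (CCAAT, 9 bases of any kind and CCACG), its variant (ATTGG, any base and CCACG) and the ATF4 element TGATGNAAN matched 0 of the 52 member windows, and 0.0806%, 0.0513% and 3.18% of all windows. The short CCAAT box stood in 15 member windows (28.8%) and in 33.0% of all. The stretches around the 7 matches are shown so that their surroundings can be compared. Each runs 5′ to 3′ along the gene's strand, with the UPRE letters or their reverse complement in capitals.
KDELR3 (chr22:38468030-38468077, plus strand): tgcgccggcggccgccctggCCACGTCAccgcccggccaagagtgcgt
COPB1 (chr11:14499832-14499879, minus strand): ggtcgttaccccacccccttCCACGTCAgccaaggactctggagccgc
COPB2 (chr3:139389816-139389863, minus strand): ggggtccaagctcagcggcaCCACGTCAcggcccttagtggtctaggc
SEC62 (chr3:169966770-169966806, plus strand): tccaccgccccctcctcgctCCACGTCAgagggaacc
SRP19 (chr5:112861155-112861202, plus strand): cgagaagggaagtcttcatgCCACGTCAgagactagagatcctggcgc
SEC24A (chr5:134648586-134648633, plus strand): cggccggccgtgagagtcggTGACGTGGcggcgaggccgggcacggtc
SEC16B (chr1:177984288-177984335, minus strand): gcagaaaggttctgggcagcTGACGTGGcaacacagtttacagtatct

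The KDELR3 match lies 46 to 39 bases before the start (-46 to -39), in a window of 80.0% G and C. The 7 genes with the letters did not move together with siRNA 2. KDELR3 (-1.93) and COPB2 (-0.31) fell, SEC24A (0.36) and SEC62 (0.33) rose, and COPB1 (-0.07), SRP19 (0.06) and the dim SEC16B (-0.26) were not called. With siRNA 1, COPB1, COPB2 and SEC62 were called higher and SEC24A lower, and KDELR3, SRP19 and SEC16B were not called. Whether the letters bear on any of these changes was not tested. SEC61B, whose window is printed for comparison because it rose with every target siRNA, had none of the 4 elements in its 250 bases (chr9:99222032-99222281, plus strand, 53.2% G and C).
SEC61B: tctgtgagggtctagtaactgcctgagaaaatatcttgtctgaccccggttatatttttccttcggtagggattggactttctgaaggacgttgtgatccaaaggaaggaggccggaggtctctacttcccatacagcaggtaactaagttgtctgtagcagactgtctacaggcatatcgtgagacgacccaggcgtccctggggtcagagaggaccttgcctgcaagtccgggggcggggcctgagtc
A match is a stretch of letters and not a measured binding site.

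Of the 5 measured translocon channel genes, 4 were called with siRNA 1, 4 with siRNA 2 and 3 with the PAXIP1-AS1 siRNA, against 28.8%, 30% and 4.62% of all genes. SEC61B, a small tail-anchored subunit beside the pore, measured 10.70 and 10.52 in the 10 nM control and 10.55 and 10.57 in the 100 nM control. It measured 11.39 and 11.37 with siRNA 1, 11.36 and 11.30 with siRNA 2, and 11.46 and 11.52 with the PAXIP1-AS1 siRNA. All 6 arrays with a target siRNA lay above all 4 control arrays. The log2 fold changes were 0.77 (SE 0.067, adjusted p = 0.000126) with siRNA 1, 0.72 (adjusted p = 0.000154) with siRNA 2 and 0.93 (adjusted p = 0.000626) with the PAXIP1-AS1 siRNA, or 1.71-, 1.65- and 1.91-fold. siRNA 2 and siRNA 1 differed by -0.05 (95% interval -0.20 to 0.11), and the control doses by -0.05 (-0.20 to 0.11).

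SEC61A1 and SEC61A2 encode alternative forms of the pore-forming alpha subunit, and both went the other way from SEC61B. SEC61A1 measured 11.43 and 11.45 in the 10 nM control, 10.96 and 10.91 with siRNA 1, and 10.91 and 10.94 with siRNA 2. The log2 fold changes were -0.51 with siRNA 1 (SE 0.047, adjusted p = 0.000181) and -0.52 with siRNA 2 (adjusted p = 0.000149). The 4 arrays of both siRNAs lay below both control arrays, and the siRNAs differed by -0.01 (95% interval -0.12 to 0.10). With the PAXIP1-AS1 siRNA it measured 11.29 and 11.30 against 11.38 and 11.41 (-0.10, 95% interval -0.21 to 0.01, adjusted p = 0.308). The groups in that comparison did not overlap, as was true of 51.3% of all genes.

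SEC61A2 measured 10.49 on both arrays of the 10 nM control, 10.28 and 10.22 with siRNA 1, and 9.55 and 9.59 with siRNA 2. The 100 nM control gave 10.48 and 10.46 and the PAXIP1-AS1 siRNA 10.22 and 10.21. Every target siRNA group lay below its control, siRNA 2 by the most. The log2 fold changes were -0.24 (SE 0.047, adjusted p = 0.00635), -0.92 (adjusted p = 1.3e-05) and -0.26 (adjusted p = 0.0248), and siRNA 2 differed from siRNA 1 by -0.68 (adjusted p = 2.05e-05). The siRNA 1 call was lost without siRNA 1 replicate 2 (adjusted p = 0.0513) and in a fit of the compared groups alone (0.0605). The PAXIP1-AS1 call was lost without either array of siRNA 1 (0.0509) or any of its own 4 arrays (0.117 to 0.172), and in a fit of the compared groups alone (0.0909).

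SEC62, which helps short and weakly targeted chains into the channel, measured 9.47 and 9.61 in the 10 nM control, 9.86 and 9.77 with siRNA 1, and 9.89 and 9.85 with siRNA 2. It measured 9.40 and 9.50 in the 100 nM control and 9.82 and 9.80 with the PAXIP1-AS1 siRNA. As with SEC61B, no array with a target siRNA reached down to a control array. It rose by 0.27 (SE 0.066, adjusted p = 0.0166), 0.33 (0.00649) and 0.36 (0.0244). The first call was lost without control 10 nM replicate 1 (0.0672) or siRNA 1 replicate 1 (0.110), and the last without any of its own 4 arrays (0.0750 to 0.153). In a fit of the compared groups alone the 3 adjusted p were 0.0737, 0.0582 and 0.0705. SEC63, its partner at the channel, was not called (0.00 with siRNA 1, 0.05 with siRNA 2 and 0.03 with the PAXIP1-AS1 siRNA).

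**Figure D2:**
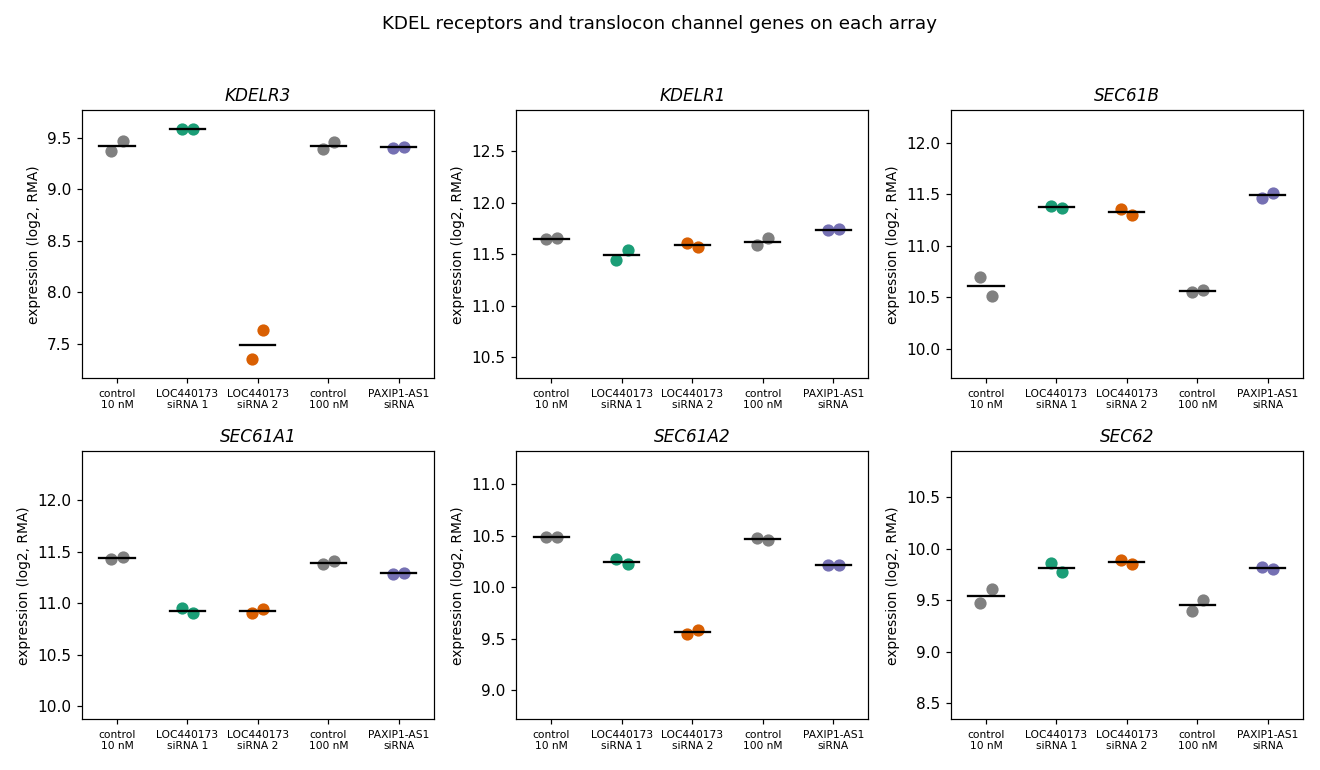
Expression (log2, RMA) of KDELR3, KDELR1 and 4 translocon genes on each of the 10 arrays (points), with group means as black bars. All panels span the same number of log2 units, each at its own level. KDELR3 is low on the siRNA 2 arrays (7.35 and 7.63), and SEC61B is higher on all 6 arrays with a target siRNA than on the 4 control arrays.

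The SRP recognizes signal peptides and pauses translation. Of its 6 measured protein genes, 1 was called higher and 1 lower with siRNA 1 (33.3%, near the 28.8% of all genes). SRP68, part of the dimer that holds the SRP RNA, measured 11.42 and 11.41 in the 10 nM control, 11.81 and 11.86 with siRNA 1, and 11.42 and 11.41 with siRNA 2. It rose by 0.42 with siRNA 1 (SE 0.049, adjusted p = 0.000551), and siRNA 2 left a difference of 0.00 (95% interval -0.11 to 0.11). The arrays of siRNA 1 thus stood alone, and siRNA 2 differed from siRNA 1 by -0.42 (adjusted p = 0.000288).

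SRP9, of the domain that pauses elongation, measured 12.73 and 12.78 in the 10 nM control, 12.16 and 12.13 with siRNA 1, and 12.72 and 12.78 with siRNA 2. It fell by 0.61 with siRNA 1 (SE 0.050, adjusted p = 9.58e-05) and differed by 0.00 with siRNA 2 (95% interval -0.12 to 0.11). SRP9 was the only member with several probe sets. Its other, dimmer probe set gave -0.98 with siRNA 1 and 0.38 with siRNA 2, so both showed the siRNA 1 fall and they disagreed on siRNA 2. Signal that other copies of SRP9 could add to either probe set was not tested. SRP14, SRP19, SRP54 and SRP72 were not called in the main fit, with values from 0.06 (SRP14) to 0.25 (SRP19) with siRNA 1. With siRNA 1, an unadjusted p under 0.05 was found for 4 of the 6, SRP68 and SRP9 included, and for 7375 of 18404 genes. Some alternatives called SRP54 higher with siRNA 1 and with siRNA 2, among them the replicate block and another quantile normalization. The trend and robust prior also called SRP19 higher with siRNA 1. With siRNA 2, limma called 0 of the 6 at the adjusted threshold and 1 had an unadjusted p under 0.05 (SRP54, 0.23, adjusted p = 0.0608).

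The translocon-associated protein complex (SSR1 to SSR4) sits beside the channel and helps some signals insert. SSR4, its delta subunit, measured 9.26 and 9.10 in the 10 nM control, 8.92 and 8.95 with siRNA 1, and 8.98 and 8.83 with siRNA 2. Both target groups lay below the control (-0.24 and -0.27, SE 0.073, adjusted p = 0.0395 and 0.0234). The siRNA 1 call was lost without control 10 nM replicate 1 (0.144), either siRNA 1 array (0.161 and 0.116), or any array of the 100 nM experiment (0.0608 or 0.0609). The siRNA 2 call was lost without control 10 nM replicate 1 (0.113) or siRNA 2 replicate 2 (0.130), and another quantile normalization ended both (0.123 and 0.0739). In a fit of the compared groups alone they were 0.0960 and 0.139. SSR1, SSR2 and SSR3 were not called against a control, with values between -0.16 and 0.17, and SSR1 was higher with siRNA 2 than with siRNA 1 (0.21, adjusted p = 0.0262). That SSR1 call was lost without either siRNA 1 array (0.128 and 0.0756) or either siRNA 2 array (0.0934 and 0.0761).

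Signal peptidase cuts the signal off, and SEC11A and SEC11C are its alternative catalytic subunits. SEC11C measured 8.92 and 9.01 in the 10 nM control, 9.08 and 9.06 with siRNA 1, and 9.46 and 9.55 with siRNA 2. It measured 8.93 and 8.83 in the 100 nM control and 9.16 and 9.14 with the PAXIP1-AS1 siRNA. The siRNA 2 arrays were the highest, at 0.53 above the control (SE 0.060, adjusted p = 0.000389). The PAXIP1-AS1 difference was 0.27 (adjusted p = 0.0483), a call lost without any array of either LOC440173 siRNA (0.0592 to 0.0920) or of the 100 nM experiment (0.124 to 0.234), and in a fit of the compared groups alone (0.108). SEC11A differed by 0.20 with siRNA 2 (adjusted p = 0.0788) and was not called in any comparison.

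The p24 receptors select cargo and take part in forming COPI and COPII vesicles. Of 8 measured, 1 was lower with siRNA 1, 3 were higher and 1 lower with siRNA 2, and 2 were higher with the PAXIP1-AS1 siRNA. These are 12.5%, 50% and 25% of the list, against 28.8%, 30% and 4.62% of all genes. TMED5 measured 11.09 and 11.05 in the 10 nM control, 11.04 on both siRNA 1 arrays, and 11.59 and 11.66 with siRNA 2. It measured 11.02 on both arrays of the 100 nM control and 11.59 and 11.60 with the PAXIP1-AS1 siRNA. The siRNA 2 and PAXIP1-AS1 arrays formed a high set and the other 6 a low one. The log2 fold changes were 0.55 with siRNA 2 (SE 0.048, adjusted p = 0.000116) and 0.57 with the PAXIP1-AS1 siRNA (adjusted p = 0.00121), while siRNA 1 gave -0.03 (95% interval -0.14 to 0.08).

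TMED3 had the same order, at 9.48 and 9.32 in the 10 nM control, 9.46 and 9.48 with siRNA 1, and 10.06 and 9.97 with siRNA 2. The 100 nM control gave 9.20 and 9.31 and the PAXIP1-AS1 siRNA 9.72 and 9.75. It rose by 0.61 with siRNA 2 (SE 0.070, adjusted p = 0.000421) and by 0.48 with the PAXIP1-AS1 siRNA (adjusted p = 0.0113). The latter call was lost without control 100 nM replicate 1 (0.0915), without either PAXIP1-AS1 array (0.0830 and 0.101) and in a fit of the compared groups alone (0.0512). siRNA 2 exceeded siRNA 1 by 0.54 for TMED3 and 0.58 for TMED5 (adjusted p = 0.000517 and 4.6e-05).

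TMED10, which pairs with TMED2 in p24 complexes, changed with siRNA 1 instead. It measured 12.18 and 12.17 in the 10 nM control, 11.42 and 11.46 with siRNA 1, and 12.16 and 12.18 with siRNA 2, and between 12.21 and 12.24 in the 100 nM experiment. The fall with siRNA 1 was -0.74 (SE 0.046, adjusted p = 3.41e-05), and the siRNA 2 difference was -0.01 (95% interval -0.12 to 0.10). The pseudogene TMED10P1, at 9.09 and 9.34 in the 10 nM control, 8.45 and 8.54 with siRNA 1, and 9.28 and 9.36 with siRNA 2, fell by a like amount (-0.71, SE 0.092, adjusted p = 0.000869). It is named after TMED10, and signal shared between their probe sets was not tested. TMED2 rose by 0.19 with siRNA 2 and TMED4 fell by 0.18 (adjusted p = 0.0201 and 0.0253). The TMED2 call was lost without either 10 nM control array (0.0505 and 0.0686) or siRNA 2 replicate 2 (0.101). The TMED4 call was lost without control 10 nM replicate 2 (0.103) or either siRNA 2 array (0.108 and 0.0645). Array weights (0.0573 and 0.0638) and a fit of only the compared groups (0.155 and 0.171) ended both. TMED1, TMED6 and TMED9 were not called.

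**Figure D3:**
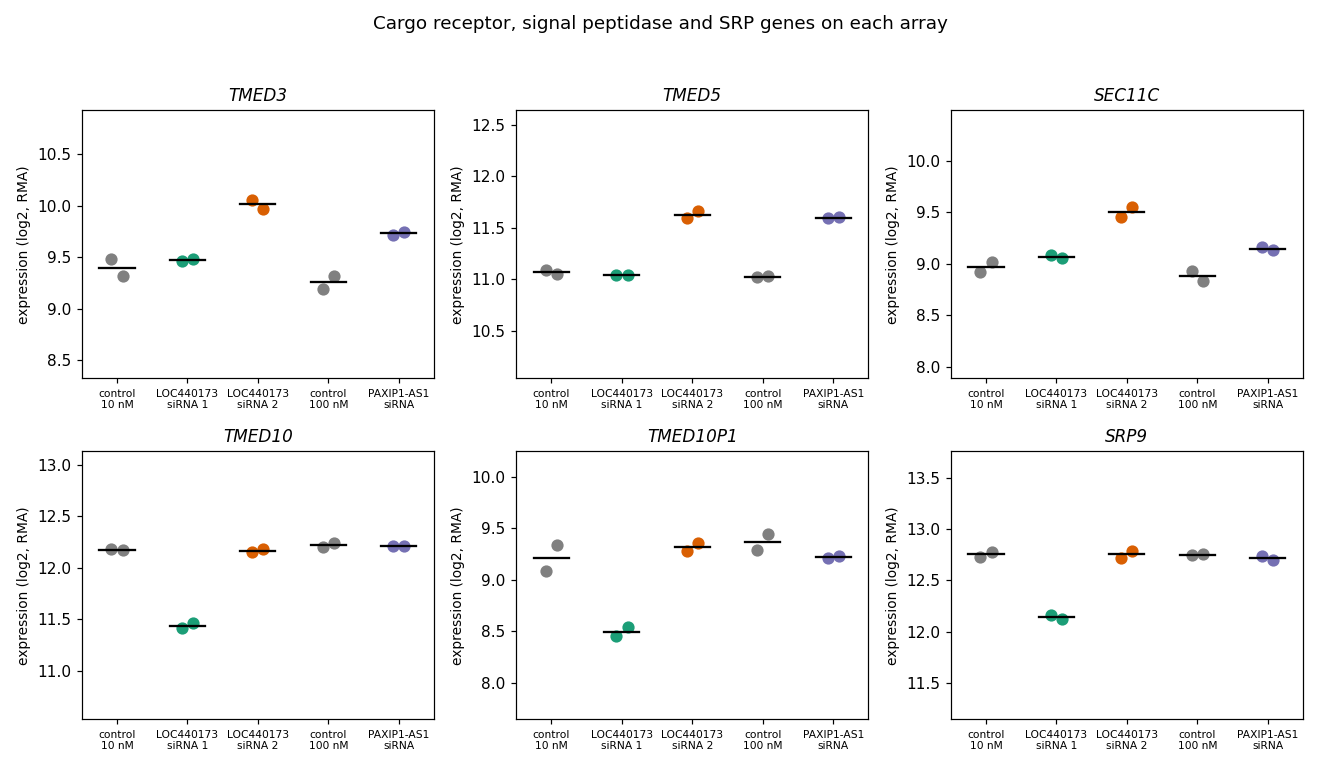
Expression (log2, RMA) of TMED3, TMED5, SEC11C, TMED10, TMED10P1 and SRP9 on each of the 10 arrays (points), with group means as black bars. TMED3, TMED5 and SEC11C are above their control with siRNA 2 and with the PAXIP1-AS1 siRNA, while TMED10, TMED10P1 and SRP9 are low with siRNA 1.

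The siRNA 2 and PAXIP1-AS1 comparisons take their differences between separate arrays, and their calls are set beside each other. The calls are not independent, because the spread of each gene was estimated over all 10 arrays. Replicate differences also correlated between the siRNA 2 and PAXIP1-AS1 groups (0.325) and between the control doses (0.447). Of the 7 members called with the PAXIP1-AS1 siRNA, 6 were also called with siRNA 2 in the same direction (85.7% of the former and 25.0% of the 24 siRNA 2 calls). These were SEC61B, SEC62, SEC11C, TMED3 and TMED5, higher in both, and SEC61A2, lower in both. Over all genes, 442 of the 850 PAXIP1-AS1 calls (52.0%, and 8.02% of the siRNA 2 calls) had the same direction with siRNA 2, and 2.4% of all genes were called so in both. A further 146 of the 850 were called in opposite directions, as were 0 of the 7 members. SEC61B and SEC62 were also called higher and SEC61A2 lower with siRNA 1, so these changes were not particular to siRNA 2. The overlap with siRNA 1 over all genes was not counted. The 7th member was SEC22C, a SNARE-like protein of ER traffic, which was also called higher with siRNA 1. It measured 10.08 and 10.11 in the 100 nM control and 10.30 and 10.34 with the PAXIP1-AS1 siRNA (0.22, SE 0.048, adjusted p = 0.0447). That call was lost without any array of either LOC440173 siRNA (0.0686 to 0.0878) or of the 100 nM experiment (0.160 to 0.272), and in a fit of the compared groups alone (0.123).

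The COPII coat is built from the inner SEC23 and SEC24 subunits and the outer SEC13 and SEC31 cage, on sites marked by SEC16. Of 12 members, 8 were called with siRNA 1 (4 higher and 4 lower) and 7 with siRNA 2 (4 higher and 3 lower), or 66.7% and 58.3% against 28.8% and 30% of all genes. The direct comparison of siRNA 2 with siRNA 1 called 4 of the 12 (33.3%, against 37.1% of all genes). With the PAXIP1-AS1 siRNA limma called 0 of 12, against 4.62% of all genes. The largest fall was that of SEC13, which measured 9.82 on both arrays of the 10 nM control, 9.19 and 9.24 with siRNA 1, and 9.52 on both arrays of siRNA 2. It fell by 0.61 with siRNA 1 (SE 0.050, adjusted p = 9.59e-05) and fell by 0.30 with siRNA 2 (0.00256), and siRNA 2 was above siRNA 1 by 0.31 (adjusted p = 0.00167). SEC13 also serves in nuclear pores, so its level is not that of the coat alone.

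SEC24A, a cargo-binding subunit, went opposite ways with the LOC440173 siRNAs. It measured 9.70 and 9.89 in the 10 nM control, 9.29 and 9.34 with siRNA 1, and 10.09 and 10.22 with siRNA 2. The siRNA 1 arrays were below and the siRNA 2 arrays above both control arrays, at -0.48 (SE 0.080, adjusted p = 0.00311) and 0.36 (adjusted p = 0.0112). The direct difference was 0.84 (SE 0.080, adjusted p = 0.000104). The rise with siRNA 2 was lost without control 10 nM replicate 1 (0.0579) or siRNA 2 replicate 2 (0.0700), and in a fit of the compared groups alone (0.0783). Its relatives SEC24B and SEC24C were not called in the main fit, and SEC24D was lower with both (-0.37 and -0.24, adjusted p = 0.00471 and 0.0308). Some alternatives called SEC24B higher with siRNA 2, among them the replicate block and another quantile normalization. The SEC24D call with siRNA 2 was lost without control 10 nM replicate 2 (0.142), either siRNA 2 array (0.0933 and 0.106), with array weights (0.0847) or in a fit of the compared groups alone (0.112).

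The paralogs SEC23A and SEC23B, GTPase activators of the coat, moved apart. SEC23A rose with both siRNAs (0.19 and 0.34, adjusted p = 0.0358 and 0.00262), and SEC23B was lower (-0.37 and -0.25, adjusted p = 0.00120 and 0.00694). On the arrays SEC23A rose from 11.07 and 11.18 in the 10 nM control to 11.34 and 11.29 with siRNA 1 and 11.45 and 11.48 with siRNA 2, while SEC23B went from 10.79 and 10.87 to 10.46 and 10.48 and to 10.57 and 10.60. With the PAXIP1-AS1 siRNA both lay above the control, by 0.22 and 0.19, without being called (adjusted p = 0.0761 and 0.0766). The SEC23A call with siRNA 1 was lost without control 10 nM replicate 1 (0.125), either siRNA 1 array (0.170 and 0.0913), any array of the 100 nM experiment (0.0550 or 0.0587), or in a fit of the compared groups alone (0.131). The SEC23B call with siRNA 2 was lost in a fit of the compared groups alone (0.0897).

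SEC23IP, which binds SEC23, measured 10.23 and 10.18 in the 10 nM control, 10.50 and 10.52 with siRNA 1, and 10.48 and 10.51 with siRNA 2. SEC16A, the scaffold of exit sites, measured 9.07 and 9.11, then 9.42 and 9.47, then 9.26 and 9.24 in the same groups. Both were above their control on all 4 arrays. SEC23IP rose by 0.30 (adjusted p = 0.00294) and 0.29 (0.00309), the second lost in a fit of the compared groups alone (0.0544). SEC16A rose by 0.36 (0.00102) with siRNA 1 and by 0.16 with siRNA 2 (0.0327), the latter lost without any single array (adjusted p from 0.0507 to 0.119), with array weights (0.0839) and in a fit of the compared groups alone (0.204). SEC31B was higher by 0.20 with siRNA 1 (0.0461), a call lost without control 10 nM replicate 1 (0.161), either siRNA 1 array (0.114 and 0.189) or any array of the 100 nM experiment (0.0645 or 0.0758). It was also lost with a trend and robust prior (0.0771), array weights (0.0532) or only the compared groups (0.128). SEC31A, the main outer subunit, and the dim SEC16B were not called in the main fit. Some alternatives called SEC31A lower with siRNA 2 than with siRNA 1, among them the replicate block and another quantile normalization.

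Of 8 genes of the COPI coat, 2 were higher and 2 lower with siRNA 1, and 4 were lower with siRNA 2, against 28.8% and 30% of all genes called. The direct comparison of siRNA 2 with siRNA 1 called 7 of the 8, 2 higher and 5 lower, against 37.1% of all genes. The COPE difference in it ran from -0.35 to -0.29 over the alternatives, and its call was not kept in every one. COPG1 (gamma) measured 10.53 and 10.60 in the 10 nM control, 9.70 and 9.68 with siRNA 1, and 10.38 and 10.46 with siRNA 2. COPZ1 (zeta), its partner in the adaptor-like part of the coat, measured 11.95 and 12.06, then 11.12 and 11.17, then 11.92 and 12.11 in the same groups. For both the siRNA 1 arrays were the lowest of the 10. COPG1 fell by 0.87 (SE 0.051, adjusted p = 2.68e-05) and COPZ1 fell by 0.85 (SE 0.071, adjusted p = 0.000105), or 1.83- and 1.81-fold, against -0.14 (95% interval -0.26 to -0.02) and 0.01 (-0.15 to 0.18) with siRNA 2. COPG1 with siRNA 2 was called when dim genes were left out or the prior was robust and followed intensity (adjusted p from 0.0184 to 0.306 over the alternatives). The direct comparison put siRNA 2 above siRNA 1 by 0.73 and 0.87 (adjusted p = 2.15e-05 and 4.67e-05).

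The beta subunits rose with siRNA 1 in the same cells. COPB1 measured 10.66 and 10.76 in the 10 nM control, 11.07 and 11.11 with siRNA 1, and 10.62 and 10.66 with siRNA 2, a rise of 0.38 with siRNA 1 (SE 0.056, adjusted p = 0.00172). COPB2 measured 10.29 and 10.32, then 10.48 and 10.46, then 9.99 and 10.00. It was higher than the control with siRNA 1 (0.17, adjusted p = 0.0287) and lower with siRNA 2 (-0.31, SE 0.046, adjusted p = 0.00158). The rise of COPB2 was lost without either 10 nM control array (0.0791 and 0.0594), either siRNA 1 array (0.137 and 0.0933), either PAXIP1-AS1 array (0.0557 for each) or in a fit of the compared groups alone (0.137).

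With siRNA 2, 4 of 8 COPI members were lower and 0 higher, against 17.4% and 12.5% of all genes. An unadjusted p under 0.05 was found for 5 of the 8, COPG1 included, and for 7062 of 18404 genes. COPA (alpha) measured 11.59 and 11.67 in the 10 nM control and 11.33 and 11.34 with siRNA 2, a log2 fold change of -0.30 (SE 0.056, adjusted p = 0.00488), lost in a fit of the compared groups alone (0.0558). COPE (epsilon, -0.25, adjusted p = 0.0378) and ARCN1 (delta, -0.18, adjusted p = 0.0478) were called by a narrow margin. COPE was lost without any single array other than control 10 nM replicate 2, and ARCN1 without any other than control 10 nM replicate 1 (adjusted p from 0.0538 to 0.163 and from 0.0643 to 0.210). Array weights (0.0756 and 0.0911) and a fit of only the compared groups (0.153 and 0.224) ended both calls, and another quantile normalization that of COPE (0.0563). The median of the COPI members was -0.16 with siRNA 2 and 0.08 with siRNA 1, against 0.01 and 0.05 over all genes. With the PAXIP1-AS1 siRNA limma called 0 of 8, and 0 had an unadjusted p under 0.05. The dim paralog COPZ2 was not called, and COPG2 was not analysed here.

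**Figure D4:**
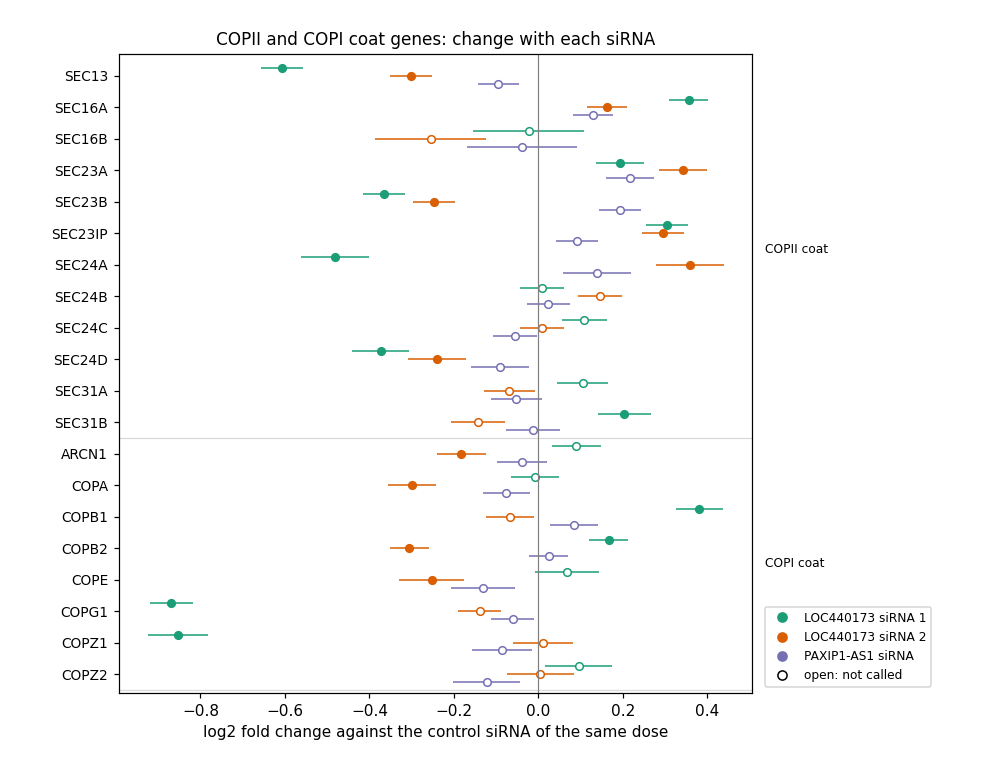
Log2 fold change of 12 COPII genes and 8 COPI genes against the control siRNA of the same dose, with standard errors as bars, for LOC440173 siRNA 1 (green), siRNA 2 (orange) and the PAXIP1-AS1 siRNA (purple). Filled points passed an adjusted p of 0.05. COPG1 and COPZ1 lie at -0.87 and -0.85 with siRNA 1 and at -0.14 and 0.01 with siRNA 2, and SEC24A is at -0.48 with siRNA 1 and 0.36 with siRNA 2.

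Some genes met the naming rule without belonging to these machines. SEC14L1, a lipid-binding protein, measured 8.75 and 8.76 in the 10 nM control and 9.14 and 9.05 with siRNA 2 (0.34, SE 0.056, adjusted p = 0.00249). SEC14L3, SEC14L4, SEC14L5, TMED8 and the pseudogene SEC1P were not called against a control. The pseudogene SSR4P1 was called higher with siRNA 2 (0.25, adjusted p = 0.0369), lost without 9 of the 10 arrays (adjusted p from 0.0574 to 0.170, the exception being control 10 nM replicate 1). Trend and robust prior (0.103), array weights (0.0611) and only the compared groups (0.178) also ended that call. SEC22A and SEC22B, of the SEC22 family, were not called against a control, although SEC22B was higher with siRNA 2 than with siRNA 1 (0.41, adjusted p = 0.0175). That SEC22B call was lost without either siRNA 1 array (0.0810 and 0.0703) or siRNA 2 replicate 2 (0.108). SEC22C was higher by 0.17 with siRNA 1 (adjusted p = 0.0340). That call was lost without either 10 nM control array (0.102 and 0.0521), either siRNA 1 array (0.146 and 0.109), any array of the 100 nM experiment (0.0544 or 0.0592), with array weights (just past the threshold) or in a fit of the compared groups alone (0.142). Without these SEC14-like genes, TMED8 and the pseudogenes, 50 members remained, of which 21, 22 and 7 were called with siRNA 1, siRNA 2 and the PAXIP1-AS1 siRNA (42%, 44% and 14%, against 28.8%, 30% and 4.62% of all genes).

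Other genes of the route that the naming rule left out were read from a list of 68 partners, of which 67 were measured. With siRNA 1, 16 were higher and 11 lower, with siRNA 2 8 higher and 25 lower, and with the PAXIP1-AS1 siRNA 3 higher and 2 lower (40.3%, 49.3% and 7.46% called, against 28.8%, 30% and 4.62% of all genes). Of all genes, 12.5% were called higher and 17.4% lower with siRNA 2. The partners' median was 0.04, -0.07 and -0.01 in these comparisons, against 0.05, 0.01 and -0.01 over all genes. SAR1A, a GTPase that starts the COPII coat, fell with siRNA 1 (-0.68, SE 0.053, adjusted p = 8.09e-05), while its paralog SAR1B rose with siRNA 2 (0.54, SE 0.063, adjusted p = 0.000433). The cargo receptor ERGIC1 measured lower with both (-0.65 and -0.91, adjusted p = 9.08e-05 and 1.99e-05). The SNAREs BET1 and STX5 rose with siRNA 1 (0.53 and 0.51), and with siRNA 2 they stood at 0.26 and -0.38 (adjusted p = 0.0240 and 0.000917). TRAPPC4, of a vesicle tether, rose with siRNA 2 (0.33, adjusted p = 0.00135).

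The largest falls among the partners with siRNA 2 were in genes of ER proteins. SPCS3, an accessory subunit of signal peptidase, had a mean of 8.64 against 10.40 in the control (-1.76, SE 0.075, adjusted p = 6.96e-06). HYOU1, an ER chaperone, had 8.55 against 10.13 (-1.58, SE 0.048, adjusted p = 2.14e-06). With siRNA 1 they differed by 0.09 and -0.01 (adjusted p = 0.393 and 0.942), and siRNA 2 differed from siRNA 1 by -1.85 and -1.57 (adjusted p = 3.15e-06 and 1.62e-06). In signal peptidase, the fall of SPCS3 with siRNA 2 thus stood beside the rise of the catalytic subunit SEC11C (0.53) in the same cells. The comparison of siRNA 2 with siRNA 1 had its largest partner rises in SAR1A (0.83, adjusted p = 1.51e-05) and the SNARE BNIP1 (0.51, adjusted p = 0.00522).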

How the data were processed

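Per the submitters' processing notes, the authors deposited log2 expression values made by RMA and also used limma; versions, array definition file and filters: not given in the sources used here. RMA corrects background, equalizes the arrays' distributions and summarizes probes. Of 32321 probe sets, 19158 had a single symbol in the platform annotation; the probe set with the highest mean stood for a gene. No further scaling was applied, and scanner intensities were not used here. Limma 3.58.1 (R 4.3.3) fitted a mean per group over all 10 arrays, with 5 residual and 2.87 prior degrees of freedom shared by all groups; each contrast had a two-sided test, adjusted by Benjamini-Hochberg over 18404 genes. The code was tested on simulated data. The smallest p of an exact permutation of 2 against 2 arrays is 0.333, so calls rest on the pooled spread; the number of arrays limits precision. Nothing says whether the biological replicates were separate cultures, so p-values measure the spread between these samples. Members, lists and the naming rule (all members by role; arrays for the KDEL receptors, SEC61B and the 5 largest called changes each way; the 2 largest partner changes) were chosen with earlier results of these data known. Fold changes are differences of log2 values.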

Additional observations from a re-analysis of the deposited data

How the results depend on the processing

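No called member changed direction under any alternative run. Of the calls, 15 of 22 (siRNA 1), 11 of 24 (siRNA 2), 20 of 26 (siRNA 2 against siRNA 1) and 2 of 7 (PAXIP1-AS1: SEC61B and TMED5) were made under every alternative other than the added minimum fold. With at least 1.5-fold required, 7, 4, 8 and 1 were called. Other members, not called in the main fit, were called under some alternatives. In a fit of the compared groups alone, siRNA 2 called 11 and PAXIP1-AS1 2; the latter called 12 with dim genes left out and 11 with a trend and robust prior. Leaving out each array in turn gave 16 to 24, 15 to 20, 20 to 26 and 2 to 7 calls, and 26 to 35 by the F test. The member medians then lay from 0.0216 to 0.0474 (siRNA 1), -0.0102 to 0.0148 (siRNA 2), -0.00906 to 0.00916 (siRNA 2 against siRNA 1) and -0.0101 to 0.0108 (PAXIP1-AS1). The siRNA 2 against siRNA 1 median was -0.0201 after another quantile normalization and 0.0527 with dim genes left out. The cause of these shifts was not tested. The labels do not say what same-numbered replicates share beyond the number. The correlations of their differences ran from 0.0677 to 0.529 over 10 pairs of groups, 6 of them over 0.1. Pairs with siRNA 1 reached at most 0.0904, and every pair without it was at least 0.293. The main fit left the replicate number out, and the source of these correlations was not tested. With the replicate block, 26, 27, 28 and 7 members were called and 41 by the F test. With 2 arrays a group, the number of arrays limits which small differences could be called.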
